A study of Chlorocebus sabaeus with 3 samples.

Results

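The collagen gene family was examined in 3 tissues of the ocular surface of the vervet monkey (Chlorocebus sabaeus). Members were chosen by symbol from a list of 33 collagen genes, and 32 of them had at least 1 probe set that carried only that symbol. These 32 genes had 87 probe sets, out of 19775 genes and 41097 probe sets with a single symbol on the array. COL17A1 was not analysed here. A further 11 collagen genes with a probe set of a single symbol were not on the list and are not counted as members. Where a gene had several probe sets, the brightest by mean log2 value over the 3 tissues was used and the others served as a check. Animals of the study were 32 to 37 months old, no treatment is named for them, and all 3 tissues came from the same eye. Cornea and limbus, the rim between the cornea and the conjunctiva, were each dissected as epithelium with part of the stroma beneath, and the piece of conjunctiva included the underlying Tenon tissue. Total RNA was amplified and hybridized to 1 human array per tissue, so monkey RNA was read by probes of human sequence. Without a second array of any tissue the spread between samples is unknown, and every difference below compares 2 arrays without a test.

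Collagens are secreted matrix proteins whose chains, rich in glycine, wind around each other into a triple helix. Fibrillar collagens, which include types I, III, V, and XI, form the fibrils that give tissue its strength. FACIT collagens (fibril-associated collagens with interrupted helices) sit on the surface of those fibrils. Type IV collagens build the sheet-like network of basement membranes, type VI forms beaded filaments between fibrils and cells, and type VIII is a short network-forming collagen known from the basement membrane of the corneal endothelium. In the corneal stroma, fibrils of types I and V are thin and evenly spaced, which keeps the tissue transparent. The connective tissue of the conjunctiva is vascular and also holds type III.

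Values are array intensities on a linear scale, with a median over all probe sets between 48.8 and 50.7 on the 3 arrays. They read RNA, so a collagen or chain called high or low refers to its genes and not to protein. A gene was counted for a tissue when its value there was at least 2-fold that of each other tissue, and ratios of values under 100 were regarded as uncertain. The signal of the 3′ end over that of the 5′ end ranged from 3.12 (limbus) to 4.58 (cornea) for GAPDH. For ACTB it ranged from 10.3 (conjunctiva) to 11.8 (limbus). The limbus was thus lowest by GAPDH but highest by ACTB, so these ratios, read from amplified RNA, do not rank the tissues by RNA quality. The authors report that the RNA of every tissue appeared little degraded. Scaling by the hybridization controls, which are spiked into each array, moved the median log2 difference of all genes by 0.80 for the limbus over the cornea, by 0.56 for the limbus over the conjunctiva, and by 0.25 for the conjunctiva over the cornea. This control scaling moves every gene of an array alike, so the differences below are relative to the other genes of the array. The shares over all genes given beside counts are those of the deposited scale. In pieces of whole tissue, fewer cells of a type and less RNA per cell cannot be told apart.

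Differences of at least 2-fold went in both directions within the family. Of the 32 collagens, 15 (46.9%) had a highest value at least 2-fold above the lowest, and the share of all genes was 13.9%. A value of at least 100 in some tissue was reached by 22 collagens, and 11 of those (50%) differed to this extent, with a share of 20.3% among all genes at that level. The conjunctiva was counted for 5 collagens, namely COL1A1, COL1A2, COL3A1, COL4A2, and COL15A1, and 1.68% of all genes were counted for it. The cornea was counted for COL12A1, COL4A4, and COL6A3, against a background of 1.89%. The limbus was counted for COL8A1 and COL11A1, against 0.475%. Scaling by the hybridization controls left COL3A1 as the only collagen counted for the conjunctiva and none for the cornea, and added COL8A2 to those of the limbus.

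By the highest value alone the family was split evenly. A total of 11 collagens was highest in the conjunctiva (36.7% of all genes were), 11 in the cornea (38.4%), and 10 in the limbus (24.9%), while with control scaling 6 of those led by the cornea (COL9A1, COL9A2, COL4A5, COL6A1, COL6A2, and COL18A1) and 3 led by the conjunctiva (COL5A1, COL16A1, and COL10A1) became highest in the limbus. The median log2 difference of the conjunctiva over the cornea was 0.17 over the 32 collagens and -0.0072 over all genes.

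**Figure D1:**
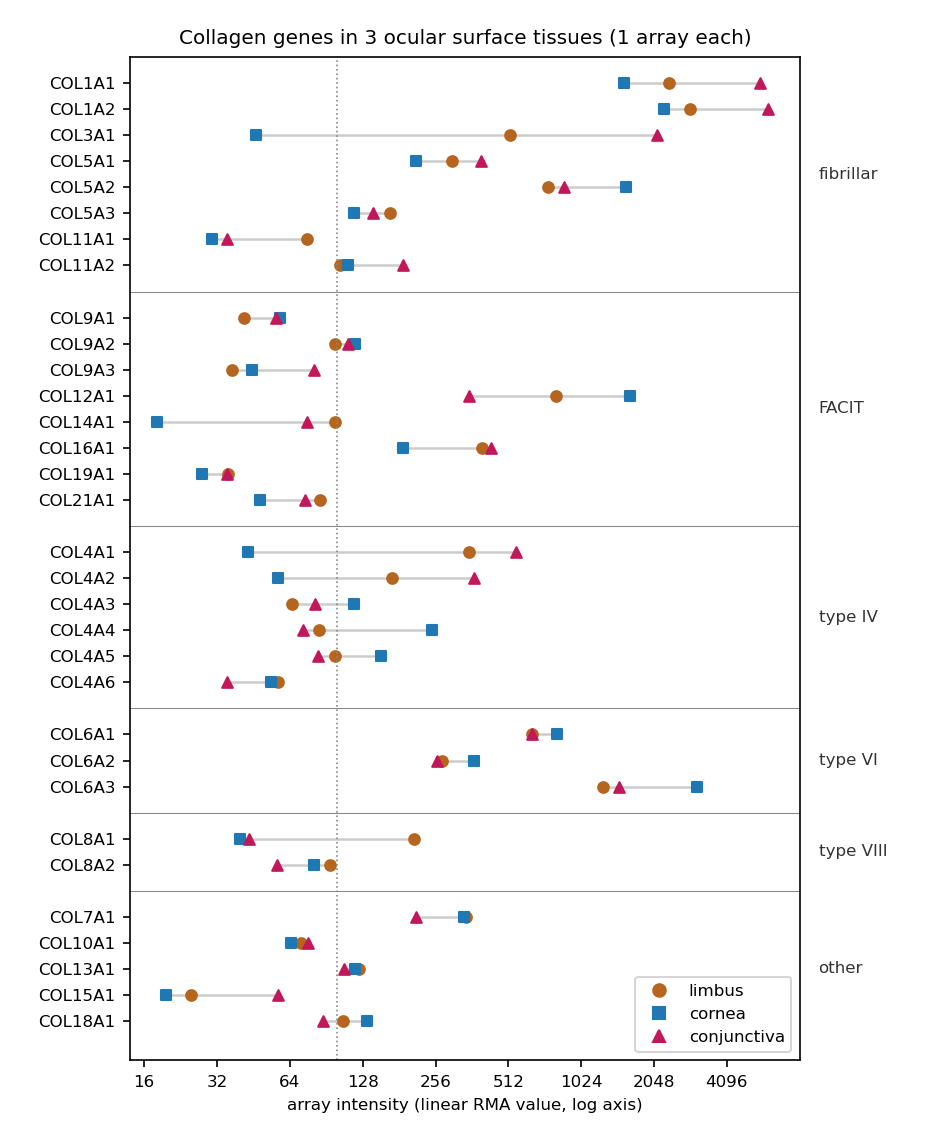
Array intensity (linear RMA value, log axis) of 32 collagen genes by tissue, with 1 array per tissue. Circles stand for the limbus, squares for the cornea, and triangles for the conjunctiva, and rows are grouped by class. Symbols are to be compared along a row and not between rows, and the dotted line marks a value of 100. COL3A1 and COL4A1 have the widest rows, with the cornea lowest, and COL8A1 stands out by its limbal value.

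The conjunctiva and the cornea were at least 2-fold apart for 11 collagens. The conjunctiva was the higher of them for 8 (COL1A1, COL1A2, COL3A1, COL4A1, COL4A2, COL14A1, COL15A1, and COL16A1), a rule met by 5.68% of all genes. The 3 at least 2-fold higher in the cornea were COL4A4, COL6A3, and COL12A1, and 5.31% of all genes met that rule. Between limbus and cornea, 7 collagens were higher in the limbus (4.06% of all genes) and 4 in the cornea (2.51%). Between limbus and conjunctiva, 3 were higher in the limbus (2.62%) and 6 in the conjunctiva (2.31%). With control scaling these became 15 and 0 between limbus and cornea, and 6 and 1 between limbus and conjunctiva. That scaling also moved the median log2 difference of all genes, to 0.76 and 0.52 for the limbus over these tissues. Shares over all genes were not computed with it. The comparisons share arrays and are not independent. Of the 11 collagens at least 2-fold apart in the conjunctiva and the cornea, the limbus lay between them in 9 (81.8%), a share near the 85.6% over all genes. The exceptions were COL14A1, highest in the limbus, and COL6A3, lowest there (with control scaling lowest in the conjunctiva).

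**Figure D2:**
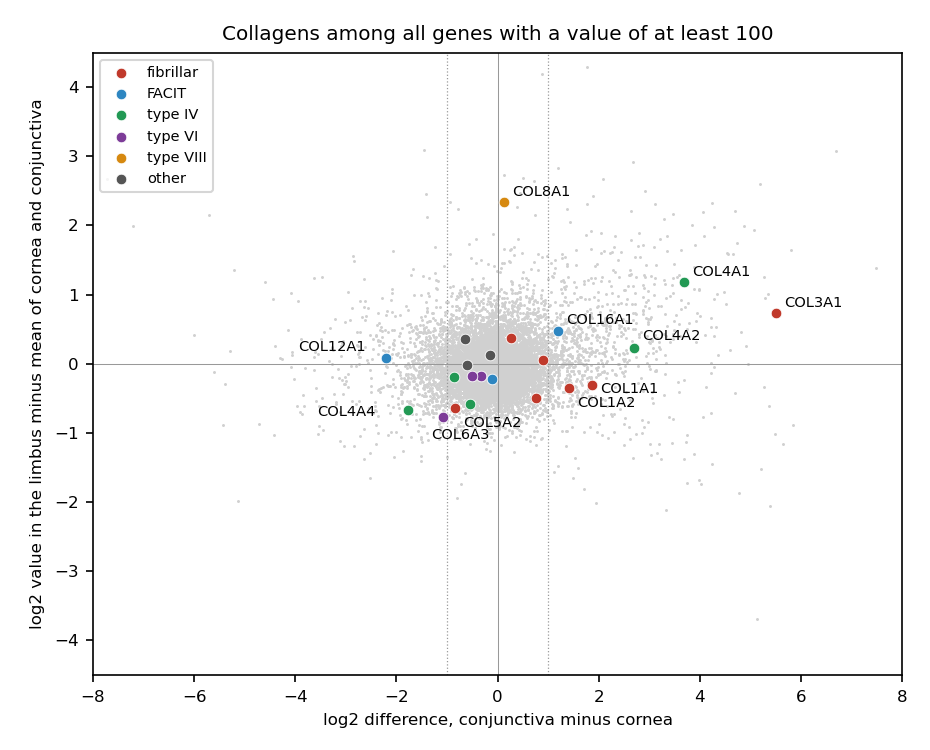
Log2 difference of the conjunctiva minus the cornea (horizontal) against log2 value in the limbus minus the mean of the other tissues (vertical), from 1 array per tissue, for the 22 collagens with a value of at least 100 (coloured by class) and for all 11003 genes at that level (grey). COL3A1 and COL4A1 lie far to the right, COL12A1 and COL4A4 to the left, and COL8A1 at the top. Scaling by the hybridization controls would move all points together to the right and upward.

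Both genes of type I collagen, the main fibril of the ocular stroma, were highest in the conjunctiva. COL1A1, which encodes its α1 chain, had a conjunctival value of 5589, a limbal value of 2371, and a corneal value of 1542. COL1A2, which encodes the α2 chain of the same molecule, had 6032, 2892, and 2257 in that order. Both genes stepped down from the conjunctiva through the limbus to the cornea. The conjunctiva exceeded the cornea 3.63-fold for COL1A1 and 2.67-fold for COL1A2. It exceeded the limbus 2.36-fold and 2.09-fold, and after quantile normalization of the 3 arrays this step was under 2-fold for both genes.

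Other probe sets of the type I genes varied in the size of the difference. All 5 probe sets of COL1A1 were highest in the conjunctiva, but their ratio of the conjunctiva to the cornea ranged from 1.06 to 7.87. A second bright COL1A2 probe set had the order of the first, with 975, 687, and 418 for conjunctiva, limbus, and cornea. The dimmest COL1A2 probe set was highest in the limbus, where it gave 106, while the conjunctiva gave 88.1 and the cornea 69.5.

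The gene of type III collagen had the widest range among the 32 collagens. COL3A1, the single chain of a fibril that is abundant in vascular and loose connective tissue, gave 2105 in the conjunctiva, 519 in limbal tissue, and 46.3 in the cornea. The conjunctiva exceeded the cornea 45.5-fold and the limbus 4.06-fold, and the limbus exceeded the cornea 11.2-fold. The corneal value lay below the median of its array, so the size of these ratios is uncertain, and with a pseudocount of 32 the log2 difference of the conjunctiva over the cornea was 4.77. On 3 further probe sets that reached 100 the order was the same, and the ratio of the conjunctiva to the cornea was 9.02, 18.4, and 87.0. The fifth probe set was at 29.2 or lower everywhere. None of the 5 exceeded 46.3 in the cornea. The log2 difference of the conjunctiva over the cornea was 5.51 for COL3A1, 1.86 for COL1A1, and 1.42 for COL1A2.

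The type V chains, which join type I in mixed fibrils and limit their width, did not move together. COL5A2 was highest in the cornea, with a corneal value of 1562, a conjunctival value of 869, and a limbal value of 749. The ratio of the cornea to the limbus was 2.08, and under 2 after quantile normalization, and that to the conjunctiva was 1.80. Its second probe set had the same highest tissue, with 391, 279, and 271 in that order. COL5A1 went the other way, with a conjunctival value of 396, a limbal value of 300.2, and a corneal value of 212, and was led by the limbus with control scaling. Its ratio of the conjunctiva to the cornea was 1.87. One other COL5A1 probe set was also led by the conjunctiva (117), and the last by the limbus (125, with 119 in the conjunctiva). COL5A3, a less common chain, ranged from 118 in the cornea to 167 in the limbus.

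In the RefSeq annotation of the vervet genome COL3A1 and COL5A2 lie next to each other with no other protein-coding gene between them. They differed in direction, since COL3A1 was 45.5-fold higher in the conjunctiva and COL5A2 1.80-fold higher in the cornea. Of the 5 pairs of listed collagen genes that are neighbours in this way, those of type IV are described further on. The remaining pair, COL19A1 and COL9A1, differed by 1.27-fold toward the conjunctiva and 1.04-fold toward the cornea, both at values under 100.

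The type XI chains, best known from cartilage, had low values. COL11A1 was counted for the limbus at 75.7, with 35.1 for the conjunctiva and 30.4 for the cornea. A second probe set had the same order at 53.6, 39.6, and 27.3, and the remaining one was at 13.7 or lower. The partner chain did not share this pattern, since COL11A2 was led by the conjunctiva at 189, with 111 for the cornea and 103 for the limbus. Its second probe set kept that order at 104, 93.6, and 68.0. COL2A1, the type II chain of cartilage, was at 29.7 or lower in all tissues, and of 5 cartilage and bone markers only ACAN reached 100.

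Of the 8 listed fibrillar collagens, 5 were led by the conjunctiva, 2 by the limbus, and 1 by the cornea. With control scaling COL5A1 passed to the limbus. Their median log2 difference of the conjunctiva over the cornea was 0.83, beside -0.0072 over all genes. It depended on the choice of probe set. It was 0.34 when each gene was given the median of its probe sets. Without probe sets of the suffix _s_at or _x_at, where COL1A1 was not measured, it was 0.27.

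Among the FACIT collagens, COL12A1 was highest in the cornea. Type XII coats the fibrils of dense stroma, and COL12A1 gave 1628 in the cornea, 806 in limbal tissue, and 353 in the conjunctiva. The cornea exceeded the conjunctiva 4.61-fold and the limbus 2.02-fold, and the limbus exceeded the conjunctiva 2.28-fold. The step from the cornea to the limbus was under 2-fold after quantile normalization. All of this rests on 1 probe set, since the other 4 were at 47.2 or lower, 2 of them highest in the cornea.

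COL14A1 and COL16A1 had the cornea as the lowest tissue. COL14A1, a close relative of COL12A1, had a limbal value of 97.9, a conjunctival value of 75.5, and a corneal value of 18.1, so that limbus and conjunctiva exceeded the cornea 5.41-fold and 4.17-fold. All are under 100, and with a pseudocount of 32 the log2 differences were 1.37 and 1.10, in place of 2.44 and 2.06. A second probe set gave 34.2, 89.3, and 11.1 in that order, and the remaining ones did not exceed 34.7. Both brighter probe sets were thus lowest in the cornea, but they differed on which of the other tissues led. COL16A1, whose product occurs beside fibrils and near basement membranes, had a single probe set. Its conjunctival value of 432 and limbal value of 398 were 2.30-fold and 2.11-fold above the corneal value of 188, and with control scaling the limbus led.

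The other FACIT collagens had low values and small differences. The type IX chains, partners of cartilage fibrils, did not share a tissue. COL9A1 ranged from 41.4 to 58.4 and COL9A2 from 98.4 to 119, with the limbus lowest for both, but highest for both with control scaling. COL9A3 was highest in the conjunctiva (80.3, with 44.7 for the cornea and 36.7 for the limbus), 2.19-fold above the limbus. COL19A1 ranged from 27.8 to 35.7 and COL21A1 from 48.1 to 85.3, with the cornea lowest for both. Only 3 of the 8 listed FACIT collagens reached 100 in any tissue.

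Type IV collagen divided by chain. COL4A1 and COL4A2, which together form the common network of basement membranes, including those of blood vessels, were highest in the conjunctiva and lowest in the cornea. COL4A1 had a conjunctival value of 553, a limbal value of 351, and a corneal value of 43.0. COL4A2 had 371, 169.5, and 56.9 in that order. The conjunctiva exceeded the cornea 12.9-fold for COL4A1 and 6.51-fold for COL4A2, and the limbus exceeded it 8.15-fold and 2.98-fold. The corneal value of COL4A1 lay below the median of its array, and with a pseudocount of 32 its log2 difference of the conjunctiva over the cornea was 2.96, in place of 3.68. The second probe set of each gene kept the order of the tissues. For COL4A1 it gave 121, 92.8, and 72.2, a ratio of the conjunctiva to the cornea of only 1.68. For COL4A2 it gave 122, 44.7, and 25.3, a ratio of 4.82.

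The α3, α4, and α5 chains, which assemble with each other in specialised basement membranes, were highest in the cornea, but COL4A5 became highest in the limbus with control scaling. COL4A4 had a corneal value of 247, a limbal value of 84.1, and a conjunctival value of 72.7, and the ratio of the cornea to these was 2.93 and 3.40. COL4A3 gave 118 in the cornea, 81.0 in the conjunctiva, and 65.0 in limbal tissue. COL4A5 gave 152, 83.4, and 98.6 in that order. The differences of COL4A3 and COL4A5 stayed under 2-fold. COL4A6, which encodes the α6 chain, had low values, with 57.4 for the limbus, 53.2 for the cornea, and 35.2 for the conjunctiva.

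The dimmer probe sets of these chains were not of one kind. Of the 6 other COL4A3 probe sets, 3 were highest in the cornea, the brightest of them at 83.6, with 54.7 for the limbus and 31.9 for the conjunctiva. Another had 71.3 for the limbus and 41.8 for the cornea. One other COL4A4 probe set was led by the cornea at 37.1, and the last by the conjunctiva at 44.2. The second COL4A5 probe set was at 27.5 or lower.

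Type IV genes lie in head-to-head pairs. On the probe sets used, the members of each pair had the same direction between conjunctiva and cornea, also with control scaling, but by the median over all probe sets only COL4A1 and COL4A2 did. COL4A1 and COL4A2 were both higher in the conjunctiva. COL4A3 was 1.45-fold and COL4A4 3.40-fold higher in the cornea, and COL4A5 was 1.82-fold and COL4A6 1.51-fold higher there. By the median over probe sets the log2 difference of the conjunctiva over the cornea was -0.50 for COL4A3 but 0.25 for COL4A4, and -0.67 for COL4A5 but 0.24 for COL4A6. The median log2 difference of the 6 type IV genes, at -0.57, therefore lay between groups of opposite direction, and it was 0.24 when each gene was given the median of its probe sets.

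On the deposited scale most markers of blood vessels had the tissue order of COL3A1, COL4A1, and COL4A2. There 7 of 11 fell from the conjunctiva through the limbus to the cornea, and KDR, TEK, RGS5, and NOTCH3 were highest in the limbus. The share of all genes with this order was not computed. PECAM1, CDH5, and PDGFRB also became highest in the limbus with control scaling, unlike COL3A1, COL4A1, and COL4A2. All 5 endothelial markers were lowest in the cornea, also with control scaling, and their summed value was 1984 for the conjunctiva, 1253 for the limbus, and 379.6 for the cornea. PECAM1, an endothelial adhesion molecule, had 675, 462, and 45.9 in that order. The 6 smooth muscle and pericyte markers summed to 4102, 1603, and 509. ACTA2, the smooth muscle actin, had 1847, 431, and 76.4. The sums rest mostly on the brightest markers, and KDR and TEK exceeded the cornea only 1.11-fold and 1.38-fold in the conjunctiva. A total of 4 of the 6 smooth muscle and pericyte markers exceeded the cornea at least 2-fold in the conjunctiva (5.68% of all genes). NOTCH3 was lowest in the conjunctiva. The lowest value on the 3 arrays was 7.23, so a marker value above 0 does not show that its cell type was present. The part of these markers in the collagen values was not tested.

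**Figure D3:**
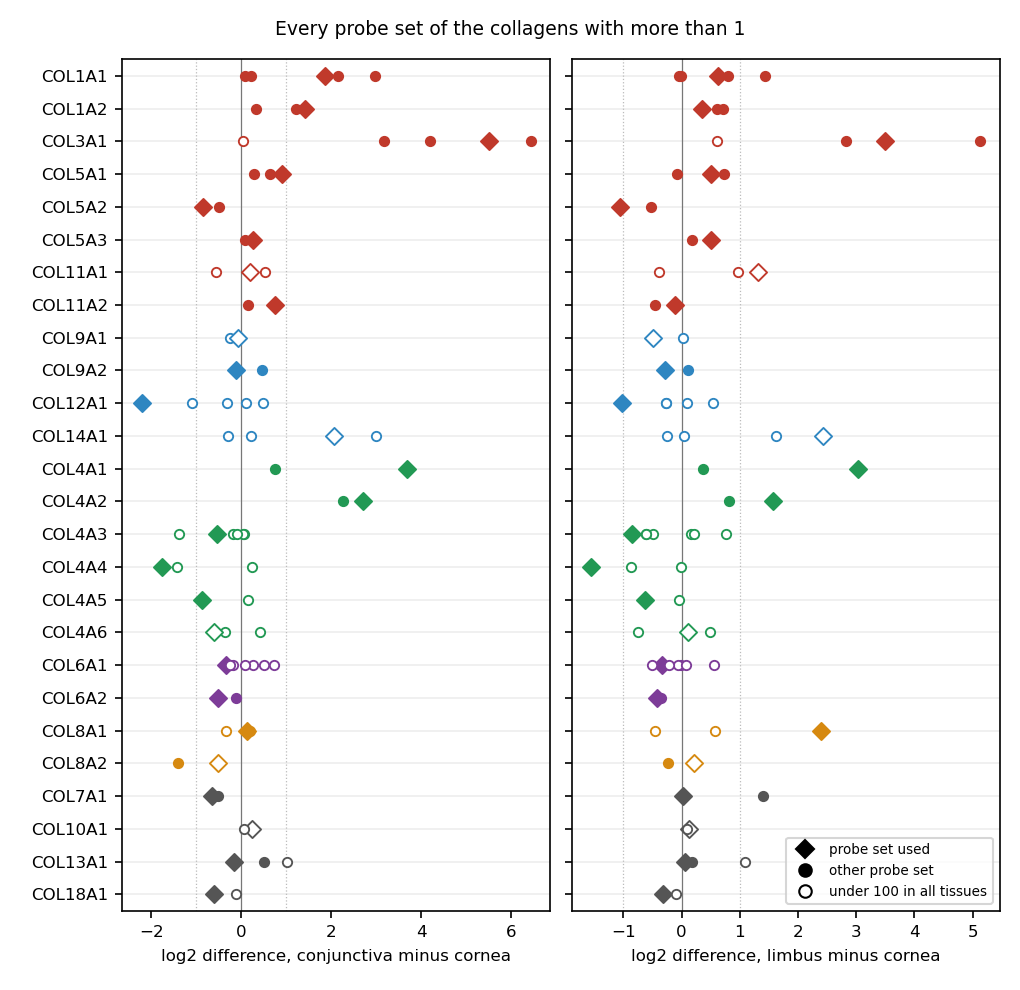
Log2 difference of the conjunctiva minus the cornea (left) and of the limbus minus the cornea (right) on every probe set of the 26 collagens with more than 1, with 1 array per tissue. Diamonds are the probe sets used, circles the others, and open symbols did not reach 100 in any tissue. The bright COL3A1 probe sets and both COL4A2 probe sets lie to the right of 0 in both panels, and COL8A1 rests on 1 probe set. With control scaling all points would move to the right, by 0.25 in the left panel and by 0.80 in the right panel.

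All 3 listed genes of type VI collagen were highest in the cornea, of which COL6A1 and COL6A2 became highest in the limbus with control scaling. COL6A3, the largest chain, had a corneal value of 3085, a conjunctival value of 1469.6, and a limbal value of 1255. The ratio of the cornea to these was 2.10 and 2.46, and the first of them was under 2 after quantile normalization. COL6A1 had 811, 644, and 639 in that order, and COL6A2 had 368, 259, and 273. The differences of COL6A1 and COL6A2 were at most 1.42-fold. Each had 1 further probe set that reached 100, again led by the cornea, at 185 for COL6A1 and 140.2 for COL6A2. The other 6 probe sets of COL6A1 were at 91.1 or lower, and 2 of them were highest in the cornea.

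Markers of the corneal stroma were also highest in the cornea, except LUM with control scaling. The 4 keratocyte markers summed to 14826 for the cornea, 5145 for the limbus, and 3117 for the conjunctiva. KERA, the keratocyte marker keratocan, had 312, 85.3, and 18.5 in that order. The keratocyte sums rest mostly on PTGDS and ALDH1A1, with corneal values of 7945 and 6432, while LUM had 137 there. The 5 fibroblast markers, of which LUM is also a keratocyte marker, did not share a direction. Their sums of 11442, 8121, and 11175 rest mostly on DCN, which had 9335, 5084, and 6415. VIM, FBLN1, and PDGFRA were highest in the conjunctiva, at 2.67-fold, 2.05-fold, and 1.86-fold the corneal value. With control scaling FBLN1 and PDGFRA passed to the limbus. LUM went toward the cornea, at 2.95-fold the conjunctival value. The part of these markers in the values of COL6A3, COL12A1, and COL5A2 was not tested.

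COL8A1, a chain of type VIII, had the largest ratio of the limbus to the next tissue among the 32 collagens, at 4.82. It gave 208 in limbal tissue, 43.2 in the conjunctiva, and 39.6 for the cornea. The lower values did not reach the array medians, and a pseudocount of 32 lowered the log2 difference of the limbus over the conjunctiva from 2.27 to 1.68. Of its 3 probe sets only this one gave values above 14.6. The partner chain COL8A2 was also led by the limbus on the probe set used, but by under 2-fold. It was counted for the limbus with control scaling. On the deposited scale it had a limbal value of 93.9, a corneal value of 80.9, and a conjunctival value of 56.5. On its other probe set the cornea was highest at 109, with 93.1 for the limbus and 41.7 for the conjunctiva. Both COL8A2 probe sets were lowest in the conjunctiva.

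Melanocyte markers were also led by the limbus, all 4 of those measured, with a sum of 1476 for the limbus, 651 for the conjunctiva, and 351 for the cornea. The part of these markers in the values of COL8A1 and COL11A1 was not tested.

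Type VII collagen forms the anchoring fibrils that fasten a stratified epithelium to its stroma. The main probe set of COL7A1 had a limbal value of 343, a corneal value of 336, and a conjunctival value of 214. On its second probe set the limbus was farther apart, at 398, followed by the cornea (150.5) and the conjunctiva (105). Both were highest in the limbus and lowest in the conjunctiva, but only the second met the 2-fold rule for the limbus. The 4 basal epithelial markers measured, which mark the cells that rest on these fibrils, did not share an order. KRT14 had 4580 for the limbus, 5521 for the conjunctiva, and 53.1 for the cornea, and KRT5, its usual partner, had 6129, 3293, and 7264. With control scaling all 4 basal markers were led by the limbus. The part of these markers in the COL7A1 values was not tested.

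The remaining collagens had low values or small differences. COL15A1, found in vessel and muscle basement membranes, was counted for the conjunctiva at 57.4, with 25.0 for the limbus and 19.6 for the cornea, all under 100 and on its only probe set, and it was not counted with a pseudocount of 32. COL18A1, a related basement membrane collagen and the source of endostatin, went the other way, with a corneal value of 133, a limbal value of 106, and a conjunctival value of 87.9, although it was highest in the limbus with control scaling. COL13A1, a transmembrane collagen, ranged from 107 to 124, and another of its probe sets was highest in the conjunctiva at 120.2. COL10A1, the collagen of hypertrophic cartilage, ranged from 64.7 to 76.1.

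The other probe sets of each gene were the only internal check of these values. The 32 collagens had 55 of them, and 33 did not reach 100 in any tissue. Where both the probe set used and another one reached 100, the other was highest in the same tissue in 17 of 21 cases (81.0%), and the share over all genes was 51.7%. COL1A1 gave 4 of the 17 and COL3A1 gave 3. The 4 exceptions belonged to COL1A2, COL5A1, COL9A2, and COL13A1. Probe sets of a gene read the same RNA on the same array and are not replicates.

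Genes that make, trim, and bind collagen were taken from 5 further lists. Of 40 listed genes 38 were measured, and 27 of them differed by under 2-fold between their highest and lowest tissue on the deposited scale. The rest were at least 2-fold apart, a larger share than the 13.9% over all genes. These were 2 genes of propeptide removal and 3 each of cross-linking, the collagen receptors, and the type IV partners. Only LOX (cornea) and NID2 (conjunctiva) were counted for a tissue, beside 1.89% and 1.68% of all genes. Between conjunctiva and cornea, 8 were at least 2-fold higher in the conjunctiva (5.68% of all genes) and 2 in the cornea (5.31%).

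The 15 measured genes of chain modification and folding, which include prolyl and lysyl hydroxylases, stayed under 2-fold in every comparison on the deposited scale. So did most genes of the array, of which 13.9% were at least 2-fold apart. With control scaling 5 of the 15 (P4HA2, P4HB, CRTAP, PLOD3, and SERPINH1) were at least 2-fold apart. SERPINH1, the collagen chaperone, had a conjunctival value of 513, a limbal value of 487, and a corneal value of 288. P4HB, a subunit of prolyl 4-hydroxylase, had 2889, 2971, and 1871. A total of 9 of the 15 was led by the conjunctiva, 5 by the limbus, and 1 by the cornea, but with control scaling 14 were led by the limbus. Their median log2 difference of the conjunctiva over the cornea was 0.40, beside -0.0072 over all genes. Of the 8 genes of propeptide removal, PCOLCE2, an enhancer of procollagen processing, was at least 2-fold higher in the conjunctiva (265) than in the cornea (119).

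LOX, the lysyl oxidase that begins the cross-linking of collagen, was counted for the cornea. It gave 665 in the cornea, 245 in limbal tissue, and 77.4 in the conjunctiva, the tissue order of COL12A1. Its relatives LOXL2 and LOXL4 were highest in the conjunctiva (112 and 177) and lowest in the cornea (45.2 and 86.5), and with control scaling LOXL2 was highest in the limbus. LOXL1 ranged only from 135 to 136, and LOXL3 from 102 to 117. The cross-linking enzymes thus differed in direction from gene to gene.

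All 4 partners of the type IV network were highest in the conjunctiva and lowest in the cornea. Of all genes 36.7% were highest in the conjunctiva, and the share that was also lowest in the cornea was not computed. NID2, a nidogen that links laminin to type IV collagen, had a conjunctival value of 113, a limbal value of 44.8, and a corneal value of 22.3. PXDN, the peroxidase that cross-links type IV collagen, had 312, 271, and 74.5 in that order. HSPG2, which encodes perlecan, had 143, 102, and 70.6, and NID1, under 100 in every tissue, had 85.4, 75.2, and 63.6. Their order was that of COL4A1 and COL4A2 and not that of the other type IV chains. With control scaling the cornea was still lowest for all 4, and the limbus led for all but NID2.

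Of the 6 collagen receptors measured, 3 were led by the limbus and 3 by the conjunctiva, and with control scaling ITGA10 and DDR2 passed to the limbus. ITGA2, an integrin α subunit of epithelia, had a limbal value of 589.5, a corneal value of 501, and a conjunctival value of 176. DDR2, a receptor of fibrillar collagen on fibroblasts, had 412, 281, and 540.3 in that order. ITGA1 had 58.1, 15.4, and 47.6, and ITGA11, a fibroblast integrin subunit, had 65.8, 57.4, and 120.4. ITGB1, the β1 subunit with which the α subunits pair, ranged from 1416 to 1635. The α subunits therefore differed in direction while the shared one differed little.

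**Figure D4:**
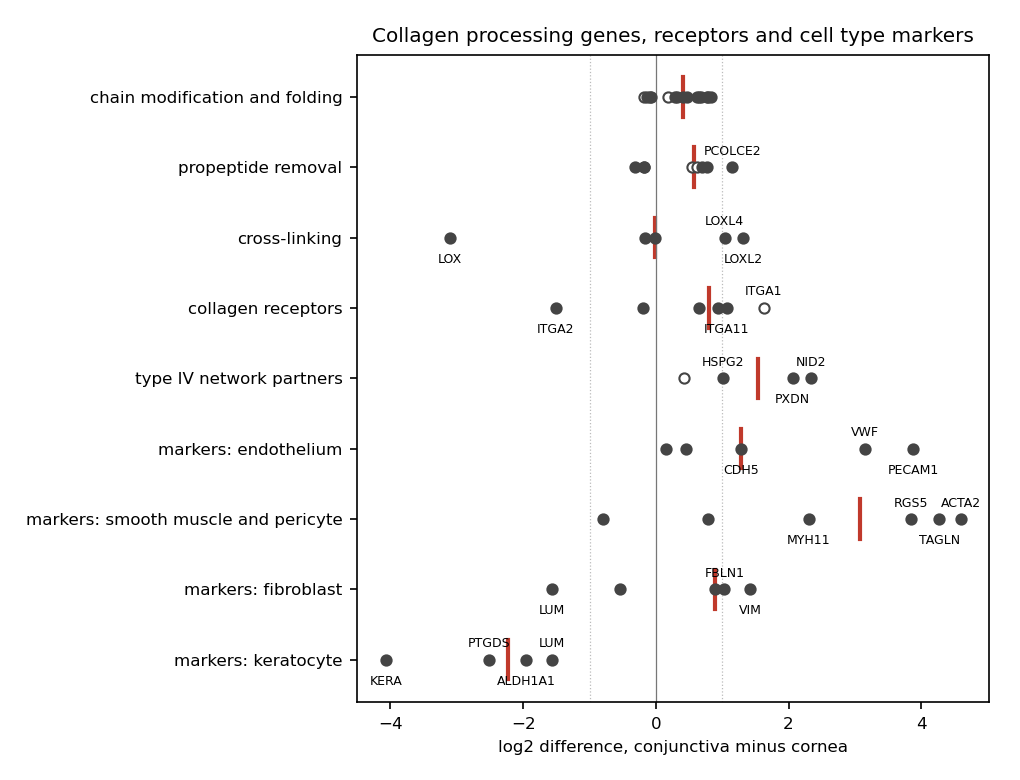
Log2 difference of the conjunctiva minus the cornea for genes of collagen processing, receptors, partners of type IV collagen, and cell type markers, with 1 array per tissue. Each point is a gene, open points did not reach 100 in any tissue, bars are the medians of the lists, and dotted lines mark 2-fold. On the deposited scale the folding genes lie within 2-fold, LOX lies far to the left, and the type IV partners and most vessel markers lie to the right. Scaling by the hybridization controls would move all points to the right by 0.25.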

How the data were processed

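The authors read 1 human array (Affymetrix) per tissue and normalized it by RMA (justRMA) with a constant set of reference arrays. RMA is named without a version in the submitters' processing notes. What was deposited is 1 intensity per probe set and tissue on a linear scale (54675 probe sets, 0 missing, 0 columns of other samples). Arrays were each normalized with the reference arrays and not together. Their deposited distributions were close, with lower quartiles from 23.7 to 24.5 and upper quartiles from 126 to 129. The hybridization controls differed, from a mean of 1476 (limbus) to 2574 (cornea). With 1 array per tissue, whether the scales differ cannot be settled. A mismatch of human probes to monkey RNA can lower a value, and tissues were compared within a probe set. Sums over markers add different probe sets and only describe a list.

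Symbols came from an older annotation of the array. A total of 1801 probe sets had several symbols and 11777 were not named here, and no gene was read from either. Ratios, log2 differences, counts, and class medians were computed with Python 3.11.15, numpy 2.4.6, and pandas 2.3.3, and plots were drawn with matplotlib 3.10.9. A count used a ratio of at least 2 without a filter on level. The counting was tested on simulated arrays. With 1 array per tissue there is no test and precision is limited by the number of arrays. All members are named. Of the other lists, genes counted for a tissue are named, with further examples chosen after their values were seen. The members and lists were chosen with earlier results of these data known. Alternatives varied the scaling, a pseudocount of 32, the ratio that counts, a minimum level of 100, and the choice of probe set.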

Additional observations from a re-analysis of the deposited data

How the results depend on the processing

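A total of 31 collagen differences between pairs of tissues was at least 2-fold. All 31 kept their direction under each scaling, with the pseudocount, and with the probe set of the largest value, and 26 stayed at least 2-fold under quantile normalization, 21 with the hybridization controls, and 23 with the pseudocount of 32. Scaling to a common median changed no count by more than 1.5 times. By the median over all probe sets 29 kept their direction, and the log2 difference turned to 0.29 for COL12A1 between the limbus and the cornea and to 0.25 for COL4A4 between the conjunctiva and the cornea. Dim probe sets enter that median. Without probe sets of the suffix _s_at or _x_at, 26 collagens were measured, and COL1A2 turned to 0.26 between the limbus and the conjunctiva. Each value rests on 1 array, and a ratio near 2-fold can fall on either side.

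The number of collagens counted for the limbus was 2. It was 1 with the pseudocount, at a ratio of 3, and at a value of at least 100, and 0 by the median over probe sets. For the cornea it was 3, and it was 1 under quantile normalization and by the median over probe sets, 0 with the hybridization controls and at a ratio of 3, and 5 at a ratio of 1.5. For the conjunctiva it was 5, and it was 3 under quantile normalization, with the pseudocount, and without _s_at and _x_at probe sets, 1 with the hybridization controls and at a ratio of 3, 8 at a ratio of 1.5, and 2 by the median over probe sets. Counts by pair moved likewise. The conjunctiva exceeded the cornea for 8, with 5 at a ratio of 3. The cornea exceeded the conjunctiva for 3, with 8 at a ratio of 1.5 and 1 by the median over probe sets. The limbus exceeded the cornea for 7, with 15 by the hybridization controls and 4 at a ratio of 3 and by the median over probe sets. The cornea exceeded the limbus for 4, with 2 under quantile normalization, 0 with the hybridization controls and at a ratio of 3, and 1 by the median over probe sets. The limbus exceeded the conjunctiva for 3, with 6 by the hybridization controls and at a ratio of 1.5, 1 at a ratio of 3 and by the median over probe sets, and 5 with the probe set of the largest value. The conjunctiva exceeded the limbus for 6, with 1 by the hybridization controls and at a ratio of 3, and 3 with the pseudocount, by the median over probe sets, and without _s_at and _x_at probe sets.

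With the hybridization controls the median log2 difference between the limbus and the cornea became 1.30 for fibrillar, 0.84 for FACIT, 0.55 for type IV, 0.37 for type VI, 2.11 for type VIII, and 0.85 for other collagens, which follows from the shift of all genes by 0.80. By the median over probe sets it became 0.023 for type VIII between the limbus and the cornea, 0.65 for type VIII between the limbus and the conjunctiva, and 0.24 for type IV between the conjunctiva and the cornea. Without _s_at and _x_at probe sets it became 0.45 for other collagens between the conjunctiva and the cornea. No paired analysis was possible because each tissue has a single array.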
